A study of Mus musculus with 12 samples.

Results

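The mir-29 family of the mouse has 4 hairpins, mmu-mir-29a, mmu-mir-29b-1, mmu-mir-29b-2 and mmu-mir-29c, and all were chosen by name from the 1050 miRNA hairpins that held a read anywhere in the series. The study sequenced small RNAs of mature epididymal sperm and of TM4 cells, a Sertoli cell line from the mouse testis, to follow how diet, AMPK inhibition and angiogenin bear on small RNA fragments. Sperm came from C57BL6/J males fed for 7 weeks, by the labels from 4 weeks of age (the study's text also gives a later start), either a control diet (CD, 16% of its energy as fat) or a high-fat diet (HFD, 69% in the labels, while the study's methods state a lower share), with 3 libraries per diet and the sperm of 3 mice pooled in each. TM4 cells were left untreated (Ctrl), treated for 12 h with 10 µM compound C (CC, an inhibitor of AMPK) or made to overexpress the coding sequence of Ang from a plasmid (Ang OE), with 2 libraries per group. All TM4 groups share a single cell line, and the labels call Ctrl untreated and name no empty plasmid beside the Ang plasmid. Nothing in the labels says that TM4 replicates were separate cultures, so p-values measure the spread between these libraries, which may be technical.

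miRNAs are cut from hairpin precursors, and a mature strand guides repression of mRNAs that pair with its seed, the bases at positions 2 to 8. The mir-29 family is known for repressing genes of the extracellular matrix, among them the collagens Col1a1 and Col3a1, and the de novo DNA methyltransferases Dnmt3a and Dnmt3b. Its members are made from a pair of clustered primary transcripts, and low levels of the family are known in fibrotic tissue. Sertoli cells nurse the developing germ cells, whereas mature sperm make little or no new RNA and carry a store of small RNAs.

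The mature 3p strands are shown because the members differ by few bases and these decide which hairpins a read can be told from. Capitals mark the seed, and sequences are those of RefSeq, written 5′ to 3′.
mmu-miR-29a-3p: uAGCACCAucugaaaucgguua
mmu-miR-29b-3p: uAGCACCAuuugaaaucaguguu
mmu-miR-29c-3p: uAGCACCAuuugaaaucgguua
All carry the same seed, which among 1738 mature mouse miRNAs of the RefSeq table was held by 4 entries, those of this family. Counting positions from 1 at the 5′ end, 29a and 29c differ by C10U alone. From 29a to 29b the changes are C10U, G18A, U21G and A22U, and from 29b to 29c they are A18G, G21U and U22A. The 29b and 29c strands are therefore identical over their first 17 nt, and counted from the 5′ end 29a matches either over the first 9 nt. The 29b-3p strand of 23 nt is the same from both 29b hairpins, so reads of it cannot be assigned to 1 of them.

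The hairpins of 29b are shown whole because only the bases outside the 3p strand (capitals) separate them.
mmu-mir-29b-1: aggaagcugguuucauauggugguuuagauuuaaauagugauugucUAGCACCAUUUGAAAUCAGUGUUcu
mmu-mir-29b-2: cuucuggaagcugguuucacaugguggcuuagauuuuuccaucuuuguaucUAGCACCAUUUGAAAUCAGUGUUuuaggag
In GRCm38.p6, mmu-mir-29a lies at chr6:31062660-31062747 and mmu-mir-29b-1 at chr6:31063023-31063093, both on the minus strand and 275 nt apart. No annotated gene other than the miRNAs overlaps them, and the nearest, the long non-coding RNA gene Lncpint, is 30470 nt from 29b-1. mmu-mir-29b-2 at chr1:195037040-195037120 and mmu-mir-29c at chr1:195037547-195037634 lie on the plus strand 426 nt apart, inside the long non-coding RNA gene A330023F24Rik. The 5p strands, with seeds of their own, differ between all 4 hairpins.
mmu-miR-29a-5p: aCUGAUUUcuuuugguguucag
mmu-miR-29b-1-5p: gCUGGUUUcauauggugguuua
mmu-miR-29b-2-5p: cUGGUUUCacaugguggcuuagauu
mmu-miR-29c-5p: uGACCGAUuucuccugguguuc

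Places that pair with the shared seed are shown for the named target genes, with the match TGGTGCT (the complement of the seed, plus strand, no overlap with another motif searched) in capitals and coordinates in GRCm39.
Col1a1, chr11:94843346-94843373: ggggtgggaaggaatttcTGGTGCTata
Col3a1, chr1:45388124-45388151: aacttcaaaatgtctcaaTGGTGCTata
Dnmt3a, chr12:3961387-3961414: ttgcccaggggaggtagcTGGTGCTagc
Dnmt3b, chr2:153528529-153528556: gcttagagtagcccggcaTGGTGCTcat
Each lies in the 3′ UTR of the canonical transcript. Col1a1, Col3a1 and Dnmt3b had 1 match each and Dnmt3a had 5 in a longer UTR of 6696 nt. Of 20691 mouse 3′ UTRs, 14.2% held the match. Among UTRs within 10% of the same length the share was 13.0% for Col1a1, 9.66% for Col3a1, 45.6% for Dnmt3a and 13.1% for Dnmt3b. A match of letters is a description of the sequence, and the mRNAs of these genes were not analysed here.

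The libraries held 31710445 to 64038150 clean reads, of which 11412945 to 14822686 per sperm library and 27651384 to 35704399 per TM4 library matched miRNA hairpins. No library held a family read without a match to the genome. Replicates differed by more than counting noise in every group, and HFD replicate 1 stood farthest from its group (chi-square per degree of freedom over hairpins of 1138 and 1461 against HFD replicates 2 and 3, which had 285 between them). Among cell type lists, the red blood miRNAs summed to 13696 to 26658 CPM in sperm and 885 to 1433 CPM in TM4 cells, where nearly all of it was mmu-mir-486a and mmu-mir-451a was below 1 CPM in every TM4 library. The epithelial mir-200 list summed to 8946 to 14327 CPM in sperm and at most 2.38 CPM in TM4 cells. The testis germ cell list summed to 3126 to 8880 CPM in sperm and 934 to 2045 CPM in TM4 cells. In TM4 cells nearly all of this was mmu-mir-34c, at 853 to 1956 CPM against 1441 to 2762 CPM in sperm. mmu-mir-880 was at 0 in every TM4 library, but reached only 10.7 CPM at most in sperm. Sperm libraries thus held miRNAs that mark other cells, and no miRNA is a defining marker of Sertoli cells by which the TM4 label could be checked. The level of Ang was not analysed here.

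Levels are given as CPM, reads of the hairpin for each 1000000 miRNA reads of the library. The mature strands are of nearly equal length, so reads were not scaled by length. mmu-mir-29a, the most abundant member in every library, stood at 477, 625 and 536 CPM in CD sperm and at 570, 656 and 819 CPM in HFD sperm. In TM4 cells it stood at 4026 and 4396 CPM in Ctrl, 4360 and 5610 CPM in CC and 3761 and 3572 CPM in Ang OE. All TM4 libraries lay above all sperm libraries. Ranked among the hairpins of a library, 29a was 61st to 74th in sperm and 26th to 39th in TM4 cells. The group means were 546 ± 74.6 (SD, n = 3) in CD, 682 ± 126 (SD, n = 3) in HFD, 3667 ± 134 (SD, n = 2) in Ang OE, 4211 ± 262 (SD, n = 2) in Ctrl and 4985 ± 884 (SD, n = 2) in CC. In that order, CD overlapped HFD and Ctrl overlapped CC, while Ang OE stood apart from both HFD and Ctrl.

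mmu-mir-29b-1, the neighbour of 29a, stood at 6.75, 7.35 and 7.79 CPM in CD sperm and at 5.53, 10.3 and 11.3 CPM in HFD sperm. In TM4 cells it reached 152 and 158 CPM in Ctrl, 149 and 202 CPM in CC and 238 and 354 CPM in Ang OE. The sperm values rest on 77.2 to 168 reads per library, those of TM4 cells on 4285 reads or more. HFD replicate 1 was the lowest of all sperm libraries and HFD replicates 2 and 3 the highest, and the Ang OE libraries lay above all others. The group means were 7.30 ± 0.525 (SD, n = 3) in CD, 9.04 ± 3.08 (SD, n = 3) in HFD, 155 ± 4.17 (SD, n = 2) in Ctrl, 176 ± 37.4 (SD, n = 2) in CC and 296 ± 81.8 (SD, n = 2) in Ang OE.

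mmu-mir-29b-2, which yields the same 3p strand from chromosome 1, showed a similar pattern, again with HFD replicate 1 lowest and Ang OE highest. It stood at 7.89, 8.75 and 8.17 CPM in CD and at 5.96, 10.7 and 12.4 CPM in HFD sperm. In TM4 cells it stood at 119 and 124 CPM in Ctrl, 118 and 165 CPM in CC and 187 and 258 CPM in Ang OE. Its group means were 8.27 ± 0.436 (SD, n = 3) in CD, 9.68 ± 3.33 (SD, n = 3) in HFD, 121 ± 3.72 (SD, n = 2) in Ctrl, 141 ± 32.9 (SD, n = 2) in CC and 223 ± 50.6 (SD, n = 2) in Ang OE. As the reads of the shared strand were divided between the hairpins, the likeness of the 29b values is partly set by the counting.

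mmu-mir-29c, the neighbour of 29b-2, was the member whose mean CPM differed least between CD sperm and Ctrl cells. It stood at 30.6, 34.3 and 29.7 CPM in CD and at 24.8, 36.6 and 51.7 CPM in HFD sperm. In TM4 cells it stood at 23.5 and 24.6 CPM in Ctrl, 26.0 and 29.7 CPM in CC and 29.6 and 31.3 CPM in Ang OE. The HFD range thus covered all TM4 groups except Ctrl, whose libraries were below every other library. The group means were 24.1 ± 0.783 (SD, n = 2) in Ctrl, 27.8 ± 2.64 (SD, n = 2) in CC, 30.4 ± 1.21 (SD, n = 2) in Ang OE, 31.5 ± 2.43 (SD, n = 3) in CD and 37.7 ± 13.5 (SD, n = 3) in HFD, and apart from Ctrl against CC each neighbour in that order overlapped the next.

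**Figure D1:**
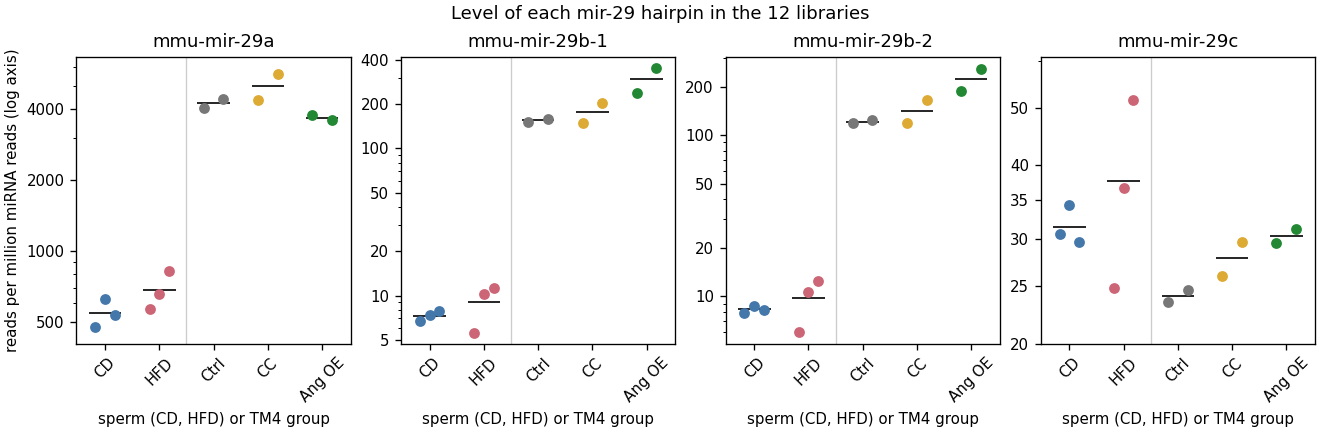
Level of each mir-29 hairpin in CPM of miRNA reads (vertical log axes, one panel per hairpin with its own range) in the sperm groups CD and HFD and the TM4 groups Ctrl, CC and Ang OE. Each point is a library and each bar the group mean; 29a and the 29b hairpins sit higher in every TM4 library than in any sperm library, and 29c does not.

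Summed over the members, the family took 593 ± 77.3 CPM (SD, n = 3) in CD, 738 ± 146 CPM (SD, n = 3) in HFD, 4511 ± 270.4 CPM (SD, n = 2) in Ctrl and 5330 ± 957 CPM (SD, n = 2) in CC. The Ang OE libraries had nearly the same sum, 4216.29 and 4216.12 CPM, although their 29a and 29b values differed in opposite directions.

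The first comparison asked how untreated TM4 cells differ from sperm of control mice. On the scale of the fit, trimmed mean of M values (TMM) normalization over all miRNA hairpins, the log2 fold change of Ctrl over CD was 2.02 (SE 0.22) for 29a, a 4.05-fold higher level with edgeR adjusted p = 7.85e-07. It was 3.47 (SE 0.35) for 29b-1, 11.1-fold higher with edgeR adjusted p = 2.78e-07, and 2.94 (SE 0.34) for 29b-2, 7.66-fold higher with edgeR adjusted p = 1.27e-06. The difference for 29c ran the other way at -1.32 (SE 0.31), 2.50-fold lower with edgeR adjusted p = 0.00122, but it was -0.15 with adjusted p = 0.614 when libraries were scaled by their clean reads other than rRNA. With DESeq2 size factors in edgeR it was -1.82, larger in size than the 1.53 of 29a there. The 29a and 29b hairpins were called higher in all 13 alternatives tried for each, with log2 fold changes of 1.47 to 4.65. The values of 29b-2 and of its neighbour 29c thus had opposite signs, but as the shared 29b strand was divided between both hairpins, how far 29b-2 itself differed cannot be told.

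All 4 members passed the test where 78.9% of the 648 hairpins tested did, 271 higher (41.8%) and 240 lower (37.0%), so the calls themselves do not set the family apart. The scale matters here: the median log2 fold change over all hairpins was 0.44, fell by 0.50 with DESeq2 size factors in edgeR (194 higher and 259 lower) and rose by 1.16 with clean reads without rRNA (368 higher and 196 lower). As unscaled ratios of mean CPM, the log2 differences were 2.95 for 29a, 4.41 for 29b-1, 3.87 for 29b-2 and -0.39 for 29c. The red blood, white blood, epithelial and germ cell lists were all lower in Ctrl in this comparison (3 of 3, 3 of 3, 5 of 5 and 7 of 7 called lower), and the mesenchymal list was higher (5 of 5), and their part in the result was not tested. Cell type, source and preparation cannot be told apart, nor, in bulk samples, can fewer cells of a type be told from less RNA per cell.

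The second comparison asked how Ang overexpression bears on TM4 cells, angiogenin being the ribonuclease that cleaves tRNAs. In Ang OE cells 29b-1 was 2.32-fold and 29b-2 2.23-fold higher than in Ctrl, 29c was 1.53-fold higher, and 29a was not called. For 29b-1 the log2 fold change was 1.21 (SE 0.17, edgeR adjusted p = 3.69e-05). For 29b-2 it was 1.16 (SE 0.17, edgeR adjusted p = 4.06e-05). For 29c it was 0.61 (SE 0.14, edgeR adjusted p = 0.00186). For 29a it was 0.07 (SE 0.12, 95% interval -0.17 to 0.32, edgeR adjusted p = 0.639), whereas the ratio of its mean CPM was -0.20 on the log2 scale with both Ang OE libraries below both Ctrl libraries, so its direction depends on the scaling.

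Of all hairpins tested, 204 of 533 or 38.3% were called, 24.2% higher and 14.1% lower, against 3 of the 4 members called higher. When scaled by clean reads without rRNA, the split was 98 higher and 103 lower, with a shift of the median log2 fold change of -0.14. On that scale 29b-1 was at 1.06, 29b-2 at 1.00 and 29c at 0.47, all called, and 29a at -0.07. When both 29b hairpins were added before the fit, which removes the division of reads between them, their log2 fold change was 1.14. Any division of reads with 29c remains in that value. The 29b calls held in all 15 alternatives tried for each, and also without Ang OE replicate 2, the higher of its libraries, where 29b-1 was at 0.84 and 29b-2 at 0.84. In that fit the lone Ang OE library is assumed to vary like the other groups, which supply the spread.

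The size of the difference moved most in a fit that took base composition into account, which also tested 428 hairpins in place of 533. In this comparison the median log2 fold change was 0.40 over the 143 hairpins with the lowest GC content of the mature strands (23.8% to 46.7%), -0.12 over the next 142 and -0.35 over the 143 with the highest. The members lie in the lowest range, at 37.9% to 43.2% GC, each value being the mean over both mature strands of the hairpin. By that mean 29a (38.6%) lay between 29b-1 (37.9%) and 29b-2 (39.4%), so the offset treats these members nearly alike. The GC content of the strand with the shared seed, taken alone, was not tested. With GC content as an offset in the fit, an alternative added after seeing the data, 125 of 428 hairpins were called, 62 higher and 63 lower. There 29b-1 was at 0.64 (edgeR adjusted p = 0.0149) and 29b-2 at 0.66 (adjusted p = 0.0115), 29c at 0.30 was no longer called (adjusted p = 0.0825) and 29a was called lower at -0.45 (adjusted p = 0.00857). The part of GC content in the members' result was not tested beyond these values.

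**Figure D2:**
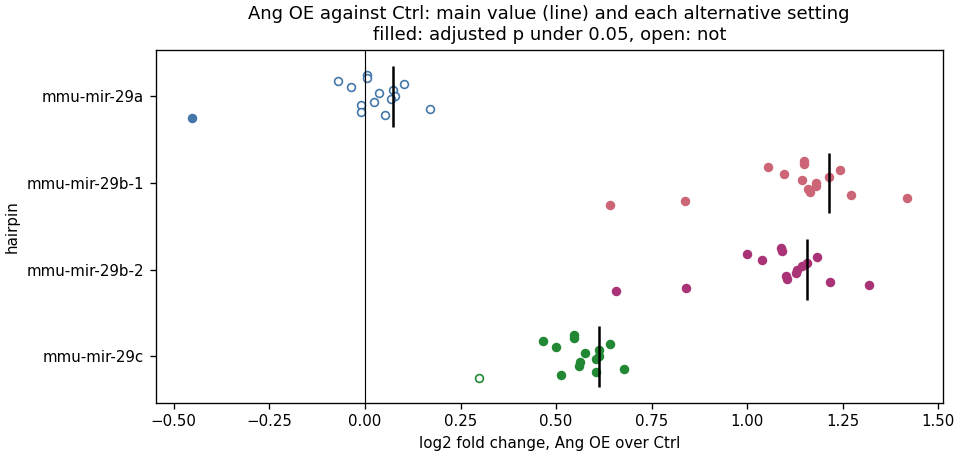
Log2 fold change of each mir-29 hairpin in Ang OE over Ctrl (horizontal axis) under each alternative setting, with the main value as a vertical line; filled points passed an edgeR or DESeq2 adjusted p of 0.05 and open points did not. The 29b hairpins stay filled throughout, between 0.64 and 1.42, and the 29a points lie around 0 except with the GC offset.

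Ang OE against CC shares its Ang OE libraries with the comparison against Ctrl, and both 29b hairpins were higher in Ang OE here as well. The log2 fold change was 1.03 (SE 0.17, edgeR adjusted p = 0.000156) for 29b-1 and 0.93 (SE 0.17, edgeR adjusted p = 0.000275) for 29b-2. Without Ang OE replicate 2 these were 0.66 and 0.63, still called. For 29c it was 0.40 (SE 0.14, edgeR adjusted p = 0.0273), but its libraries overlapped and the call was lost in 11 of 15 alternatives. For 29a it was -0.17 (SE 0.12, edgeR adjusted p = 0.242), with both Ang OE libraries below both CC libraries. Here 221 of 533 hairpins or 41.5% were called, 26.3% higher and 15.2% lower, and with clean reads without rRNA the split was 117 higher and 105 lower. With the GC offset, 29b-1 at 0.42 (edgeR adjusted p = 0.0822) and 29b-2 at 0.40 (adjusted p = 0.0823) were not called and 29a at -0.74 (adjusted p = 0.000429) was.

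The makeup of the family differed between the groups. Per 100 reads of 29a there were 3.07, 2.58 and 2.98 reads of 29b in the CD libraries and 2.02, 3.19 and 2.89 in the HFD libraries, both 29b hairpins added. In TM4 cells there were 6.73 and 6.42 in Ctrl, 6.13 and 6.54 in CC and 11.3 and 17.1 in Ang OE. This ratio needs no library size, and the Ang OE libraries lay above all others and the sperm libraries below all TM4 libraries. For 29c there were 4.35 to 6.43 reads per 100 of 29a in sperm, 0.530 to 0.596 in Ctrl and CC and 0.786 and 0.876 in Ang OE, so sperm stood highest here, and Ang OE lay above Ctrl and CC as it did for 29b. As a share of the family, 29a made up 91.3% to 94.0% in sperm, 93.2% to 93.7% in Ctrl and CC, and 89.2% and 84.7% in Ang OE. A ratio within a library shows that members changed unequally and not which of them changed.

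**Figure D3:**
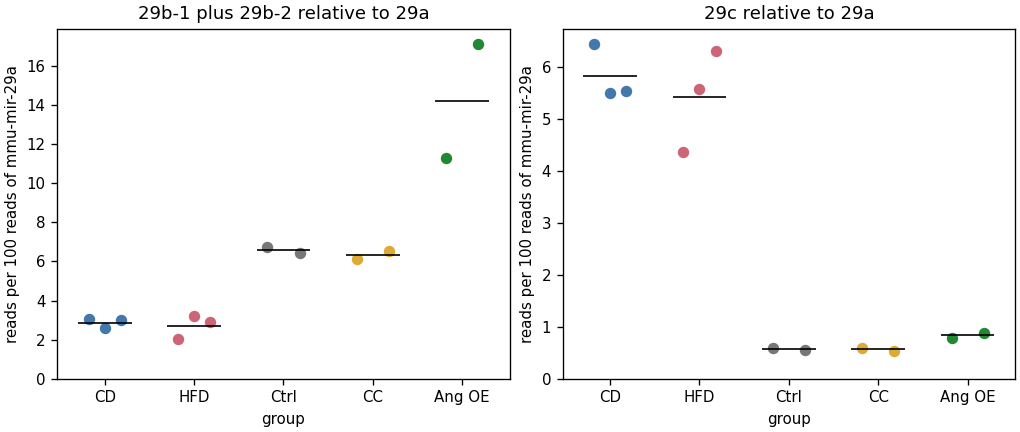
Reads of both 29b hairpins (left) and of 29c (right) per 100 reads of mmu-mir-29a, by group. Points are libraries and bars group means; Ang OE stands highest for 29b at 11.3 and 17.1, and the sperm groups stand highest for 29c.

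Between the 29b hairpins the balance also differed by source. The ratio of 29b-1 to 29b-2 reads was 0.840 to 0.962 in sperm, below 1 in each library, and 1.23 to 1.37 in TM4 cells, above 1 in each. The 29b-1 and 29b-2 values had equal fractional parts in 12 of 12 libraries (within 0.015 reads), so they differed by a whole number of reads, from 5 to 16 in sperm, where 29b-2 had more, and from 943 to 3227 in TM4 cells, where 29b-1 had more. The value of 29a was whole in 12 of 12 libraries and that of 29c in 0 of 12. Fractions arise where a read matched several hairpins and was divided, so 29c held divided reads as well as the 29b hairpins. In CD replicate 1, for example, the fractional parts of 29b-1, 29b-2 and 29c were 0.33 each, and the family sum was 7294.99. With no strand or read sequence in the deposited tables, how many reads of 29c were divided cannot be told. The part of such reads in the 29c values was not tested.

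CC against Ctrl, which shares the Ctrl libraries with Ang OE against Ctrl, gave no call among the members. The log2 fold changes were 0.25 (SE 0.12) for 29a, 0.18 (SE 0.17) for 29b-1, 0.22 (SE 0.17) for 29b-2 and 0.21 (SE 0.14) for 29c. For 29a the unadjusted edgeR p was 0.0476 and the adjusted p 0.279, and the adjusted p of the others was 0.463 to 0.648. CC replicate 2 was higher than both Ctrl libraries for each member, while CC replicate 1 lay within or below the Ctrl range for 29a and the 29b hairpins. Without CC replicate 2 the log2 fold change was 0.06 for 29a, -0.04 for 29b-1 and -0.03 for 29b-2. For 29c the CC libraries at 26.0 and 29.7 CPM lay above those of Ctrl, without a call. Over all hairpins 22 of 533 or 4.13% were called, 2.25% higher and 1.88% lower. ComBat-seq by replicate number gave 41 calls, 15 higher and 26 lower. Leaving out CC replicate 1 or 2 gave 0 calls by edgeR, with 76 and 68 hairpins at an unadjusted p under 0.05. The 95% interval of the log2 fold change was 0.003 to 0.49 for 29a and -0.18 to 0.55 for 29b-1.

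HFD against CD gave no call either. The log2 fold changes were 0.22 (SE 0.18) for 29a, 0.20 (SE 0.30) for 29b-1, 0.12 (SE 0.30) for 29b-2 and 0.15 (SE 0.27) for 29c, each with edgeR adjusted p = 0.989. HFD replicates 2 and 3 were above all CD libraries for every member, and HFD replicate 1 was below all CD libraries for 29b-1, 29b-2 and 29c and within the CD range for 29a. Without HFD replicate 1 the log2 fold changes were 0.43 for 29a (edgeR adjusted p = 0.193), 0.55 for 29b-1 (adjusted p = 0.234), 0.47 for 29b-2 (adjusted p = 0.272) and 0.47 for 29c (adjusted p = 0.259), which again passed no threshold. Without HFD replicate 2 they were 0.19 for 29a, 0.04 for 29b-1, -0.01 for 29b-2 and 0.12 for 29c, and without HFD replicate 3 they were 0.15, 0.10, -0.0033 and -0.05 in the same order. The 95% intervals with all libraries were -0.20 to 0.64 for 29a and -0.49 to 0.89 for 29b-1. Of 451 hairpins 0.0% were called by edgeR, 31 had an unadjusted p under 0.05, and DESeq2 called 8, none of the family. The white blood list summed to 580 to 676 CPM in CD and 780 to 1422 CPM in HFD. Most of it was mmu-mir-142a, at 484 to 575 CPM in CD and 688 to 1179 CPM in HFD. Its mmu-mir-223 and mmu-mir-150 overlapped between the diets, and 0 of the 3 were called. The testis germ cell list, with 0 of 7 called, had a median log2 fold change of -0.50. The part of these lists in the members' values was not tested.

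**Figure D4:**
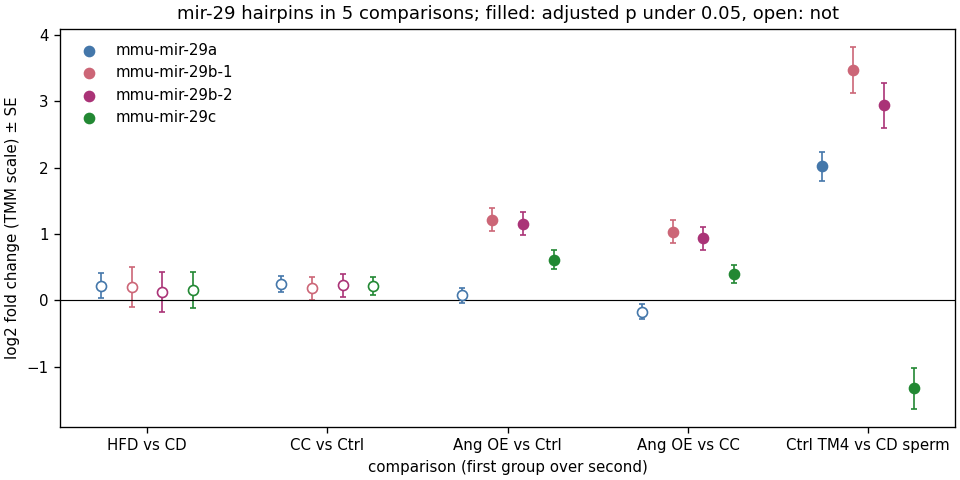
Log2 fold change (TMM scale, first group over second) with its SE for the 4 mir-29 hairpins in the 5 comparisons; filled points have an edgeR adjusted p under 0.05. No member passed in HFD against CD or CC against Ctrl, and 29c is the member below 0 in Ctrl TM4 against CD sperm.

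The hairpins whose profile was most like the family sum, by root mean square difference of centred log2(CPM + 1) over the 12 libraries among 148 hairpins with a mean of at least 100 CPM, were mmu-mir-148b (0.17), mmu-mir-152 (0.17), mmu-mir-93 (0.22), mmu-mir-19b-1 (0.23) and mmu-mir-106b (0.23). As 29a carries most of the sum, the likeness is mainly to 29a, whose own difference from the sum was 0.04, against 1.57 for 29c. Mean levels rose from 88.9 CPM in CD to 744 CPM in Ctrl for mmu-mir-148b and from 494 CPM to 4959 CPM for mmu-mir-93. Each of the 5 stood higher in every TM4 library than in any sperm library, as the family sum did.

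**Figure D5:**
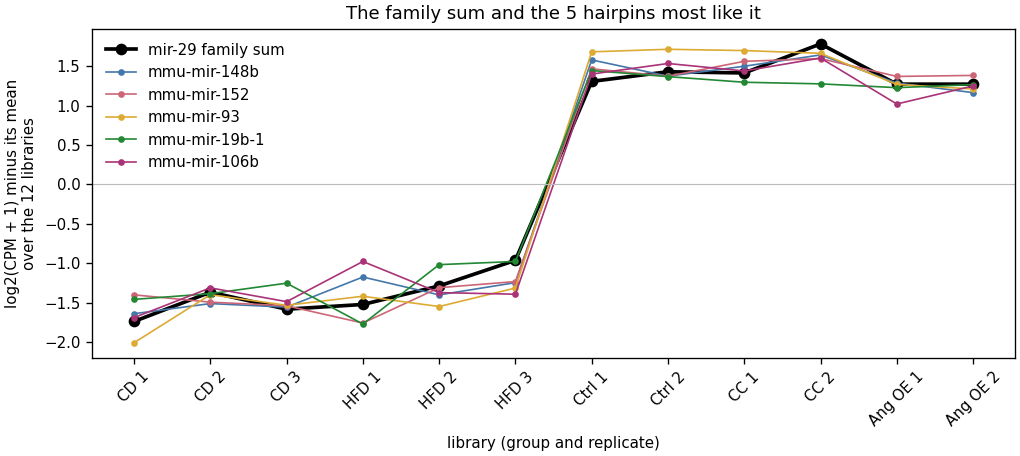
Log2(CPM + 1) of the mir-29 family sum and of the 5 hairpins most like it, each minus its own mean over the 12 libraries (horizontal axis, lines only guide the eye). All lie below 0 in sperm and above 0 in TM4 cells.

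Other miRNAs known to target DNA methyltransferase genes were read from the same fits as a list of 6. In Ang OE against Ctrl 4 of 6 were higher, beside 24.2% of all hairpins, and the median log2 fold change was 1.27, against 0.06 over all hairpins. mmu-mir-101a was at 2.02 (edgeR adjusted p = 5.65e-08), and mmu-mir-148b, known to target Dnmt1, was at 0.02 (edgeR adjusted p = 0.872). In Ang OE against CC 4 of 6 were higher, beside 26.3% of all hairpins. In CC against Ctrl and in HFD against CD 0 of 6 were called, and in Ctrl against CD 3 were higher and 2 lower, or 2 and 3 with DESeq2 size factors in edgeR, close to the 78.9% called over all hairpins. In Ang OE against Ctrl 4 of 6 were likewise called higher when scaled by clean reads without rRNA, with a median of 1.13. With the GC offset 5 could be tested, of which 3 were higher and 1 lower with a median of 0.85, and Ang OE against CC likewise gave 3 higher and 1 lower, where the split over all 428 hairpins in that fit was 62 higher and 68 lower.

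Of 13 hairpins known in fibrosis and the matrix, 6 were higher and 1 lower in Ang OE against Ctrl (24.2% and 14.1% of all hairpins), with a median of 0.13, and 4 were higher and 3 lower with a median of -0.01 when scaled by clean reads without rRNA. With the GC offset 4 of 11 were higher and 1 lower, with a median of -0.05. mmu-mir-34a, a target of p53, was at 1.15 (edgeR adjusted p = 0.000759), and mmu-mir-133a-1, of muscle, was at -1.40 without passing the test (edgeR adjusted p = 0.193). In Ang OE against CC 7 were higher and none lower (26.3% and 15.2% of all hairpins), or 4 higher and 1 lower of 11 with the GC offset, beside 62 higher and 68 lower of 428. In CC against Ctrl and HFD against CD 0 were called, and in Ctrl against CD 7 were higher and 4 lower, where 41.8% and 37.0% of all hairpins were. With DESeq2 size factors in edgeR these were 6 and 5, and relative to clean reads without rRNA 9 and 4. In the same Ang OE libraries the testis germ cell list was higher for 4 of 4 hairpins tested, for 3 of 4 under both other scalings and for 2 of 4 with the GC offset. Its summed level was 1932 to 2045 CPM against 1017 to 1050 CPM in Ctrl, nearly all of it mmu-mir-34c at 1956 and 1834 CPM in Ang OE, while mmu-mir-871 reached at most 0.593 CPM and mmu-mir-880 was at 0. The smooth muscle pair mmu-mir-143 and mmu-mir-145a, both higher on the main scale and 1 of them when scaled by clean reads without rRNA, summed to 94556 to 129039 CPM against 49714 to 55567 CPM in Ctrl. The mesenchymal list had 3 of 5 hairpins lower and none higher, also under both other scalings and with 2 lower under the GC offset, and summed to 18002 to 18795 CPM against 23641 to 24459 CPM in Ctrl. In Ang OE against CC 2 of its hairpins were higher and 2 lower, but 0 higher and 2 lower under both other scalings and with the GC offset. mmu-mir-199a-1, mmu-mir-199a-2 and mmu-mir-214 stand in both the fibrosis and the mesenchymal list, and mmu-mir-143 in both the DNA methyltransferase and the smooth muscle list. The part of these lists in the members' result was not tested.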

How the data were processed

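Small RNAs were sequenced from 6 sperm and 6 TM4 libraries made with the TruSeq Small RNA kit. The authors trimmed the reads (FastQC 0.12.0 and Trimmomatic 0.40 are named in the submitters' processing notes, with mm10) and annotated them with SPORTS1.1, which allows a mismatch and divides a read that matches several hairpins among them. The study adjusted its cell line data for batch with ComBat-seq, without naming the batches. The deposited values are estimated counts per hairpin, unnormalized and without strands or read lengths. Genome-matched and unmatched reads were added and divided by the miRNA reads of the library (CPM). Rounded counts of hairpins with at least 10 reads in 3 sperm or 2 TM4 libraries (2 of 12 for Ctrl against CD) entered the quasi-likelihood test of edgeR 4.0.16 (R 4.3.3) after TMM normalization, with Benjamini-Hochberg adjusted p under 0.05 as the call. Sperm, TM4 and all libraries made 3 fits. The tests were tested on simulated data. DESeq2 1.42.0, ComBat-seq (sva 3.50.0), other library sizes, filters, blocks and left-out libraries were alternatives. Named hairpins were the members, the 5 of most similar profile and the extremes of each list, and mmu-mir-880 was named after its values were seen; members and lists were chosen with earlier results of these data known. Python 3.11.15, pandas 2.3.3 and matplotlib 3.10.9 were used. Seed matches were searched in GENCODE 3′ UTRs.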

Additional observations from a re-analysis of the deposited data

How the results depend on the processing

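The labels do not say that a replicate number marks a shared batch, and the numbers were not taken to pair the samples, which 2 pairs per TM4 comparison could not settle. Deviations of same-numbered libraries correlated at -0.32, -0.22 and 0.04 in sperm, 0.06 for Ctrl and CC, -0.07 for Ctrl and Ang OE and 0.20 for CC and Ang OE. With the replicate number as a block the calls were 0 for HFD against CD, 35 for CC against Ctrl (22 without it), 222 for Ang OE against Ctrl and 243 for Ang OE against CC, and the call of no member changed. ComBat-seq by replicate number gave 41 for CC against Ctrl. DESeq2 called 8 for HFD against CD. The GC offset gave 125 for Ang OE against Ctrl and 130 for Ang OE against CC, on fewer hairpins tested (428). A filter of at least 100 reads gave 340 for Ctrl against CD, with 396 tested.

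Leaving out a TM4 library leaves its group with 1 library, which is assumed to vary like the others. Leaving out each library in turn gave 0 to 26 calls for CC against Ctrl (0 without either CC library). The log2 ratio of the family sum ranged over those settings from 0.15 (without HFD replicate 3) to 0.44 (without HFD replicate 1) for HFD against CD (0.32 with all), from 0.0446 to 0.41 for CC against Ctrl (0.24 with all), from -0.16 to -0.0351 for Ang OE against Ctrl (-0.10 with all) and from -0.51 to -0.14 for Ang OE against CC (-0.34 with all), the values nearest 0 for the TM4 comparisons being without CC replicate 2, Ctrl replicate 2 and CC replicate 2 in turn. Relative to clean reads without rRNA it was 0.0309 for Ang OE against Ctrl, turning the direction, and 3.17 for Ctrl against CD (2.93 relative to miRNA reads). 

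Among members, 29a in Ang OE against Ctrl turned its direction with clean reads without rRNA (-0.0702), at least 100 reads (-0.0375) and the GC offset (-0.45), and ranged from -0.011 to 0.17 with a library left out. In Ang OE against CC, 29a ranged from -0.36 (without CC replicate 1, adjusted p = 0.0362) to 0.0089 (without CC replicate 2), and was called at -0.28 with at least 100 reads. In CC against Ctrl the left-out libraries gave -0.041 to 0.35 for 29b-1 and -0.0263 to 0.41 for 29b-2. In HFD against CD they gave -0.0139 to 0.47 for 29b-2 (without HFD replicate 2 the lowest) and -0.0494 to 0.47 for 29c (without HFD replicate 3 the lowest). Over all alternatives, 259 values of single members kept direction and side of the threshold, 15 lost the call, 3 gained it and 11 changed direction, among them 29a in Ang OE against Ctrl with the GC offset, which also gained a call; the causes were not tested beyond what is given. Depth limits the sperm 29b values most, at 77.2 to 184 reads per library; Wilson intervals cover counting error only, and in CD those of the 29b hairpins were wider than the spread between libraries.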
